A study of Rattus norvegicus with 8 samples.

Results

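Microglia and macrophage marker genes were followed in the brains of adult male Wistar rats after injection into the striatum. The genes were taken from a list of 40 symbols. The array's platform annotation gave 44 probe sets with 1 of these symbols and no other, for 36 of the genes, out of 14217 genes and 31042 probe sets in all. P2ry13, Selplg, Spi1 and Msr1 were not matched in that annotation. The inactivated baculovirus group of 4 arrays comes from brains given 50000000 particles, in 5 µl, of a vector made from an insect virus. Ultraviolet light of 254 nm, applied for 1 hour, had inactivated it. The 4 arrays of the control group come from brains given phosphate-buffered saline (PBS), and in both groups tissue was taken 48 hours later. All animals carried the needle wound, at 2 injection sites, and the labels give a body weight but no age. The design text speaks of 7 rats with PBS on the side opposite to the virus. Which array came from which rat is not stated. If all 8 arrays come from these 7 rats, some arrays share an animal, while the main fit took the 8 as independent. The p-values and intervals measure the spread between these samples.

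Microglia are the resident macrophages of the brain. They are kept alive by signals through the receptor Csf1r and held in a surveying state by contact with neurons and by transforming growth factor beta. On injury they shift towards phagocytosis, and monocytes can enter from the blood and take on a similar appearance. The genes were therefore read in 3 groups. The homeostatic group holds 10 genes of surveying microglia, the core myeloid group 17 genes shared by microglia and other macrophages, and the activation or infiltration group 13 genes of phagocytic, activated or blood-derived cells. The transcription factor PU.1, the product of Spi1, drives many myeloid genes and binds sites with the letters GAGGAA.

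The sequences before the gene starts are shown as background on regulation. They are given for members that hold a longer form of the PU.1 letters or a composite element described below. Whether PU.1 has a part in any value below was not tested. RefSeq promoters of the GRCr8 build were found for 24 members, and the 250 bases before the start were searched on both strands. The letters GAGGAA occurred in 16 of the 24 (66.7%), against 23.3% of 33469 promoters. The longer GAGGAAGT, which contains GAGGAA, occurred in 3 of the 24 (12.5%), against 2.04% of all promoters. The composite element of PU.1 and an interferon regulatory factor, GGAA and GAAA with any 2 letters between them, also occurred in 3 (12.5%), against 2.48%. A match describes letters only and is not evidence of binding. The members with GAGGAAGT were Cd53 at chr2:197087897-197088146 (minus strand), Ctss at chr2:185775146-185775395 (plus strand) and Fcgr3a at chr13:85782386-85782635 (plus strand). Those with the composite element were Cd68 at chr10:54882442-54882691 (minus strand), Cybb at chrX:16065066-16065315 (minus strand) and Gpnmb at chr4:79340878-79341127 (plus strand). Each is written 5′ to 3′ on the gene's strand, with the GAGGAAGT or composite match, read on either strand, in capitals.
Cd53: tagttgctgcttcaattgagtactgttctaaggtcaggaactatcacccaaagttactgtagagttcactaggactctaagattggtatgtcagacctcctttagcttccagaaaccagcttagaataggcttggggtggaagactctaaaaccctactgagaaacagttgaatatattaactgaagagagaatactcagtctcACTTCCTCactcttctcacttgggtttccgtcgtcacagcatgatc
Ctss: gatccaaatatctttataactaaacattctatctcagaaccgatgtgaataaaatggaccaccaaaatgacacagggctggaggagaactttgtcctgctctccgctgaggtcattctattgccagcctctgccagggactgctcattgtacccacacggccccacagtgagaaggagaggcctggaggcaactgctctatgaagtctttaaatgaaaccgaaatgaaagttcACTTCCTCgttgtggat
Fcgr3a: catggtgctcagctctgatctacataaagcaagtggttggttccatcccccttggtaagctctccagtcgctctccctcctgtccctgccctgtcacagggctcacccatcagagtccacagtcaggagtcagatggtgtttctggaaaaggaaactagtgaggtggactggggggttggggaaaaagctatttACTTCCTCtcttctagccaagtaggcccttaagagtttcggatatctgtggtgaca
Cd68: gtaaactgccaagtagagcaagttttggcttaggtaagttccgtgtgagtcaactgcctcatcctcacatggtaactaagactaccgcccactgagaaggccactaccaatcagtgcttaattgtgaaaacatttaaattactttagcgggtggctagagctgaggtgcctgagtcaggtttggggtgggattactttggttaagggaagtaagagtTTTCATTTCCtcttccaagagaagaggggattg
Cybb: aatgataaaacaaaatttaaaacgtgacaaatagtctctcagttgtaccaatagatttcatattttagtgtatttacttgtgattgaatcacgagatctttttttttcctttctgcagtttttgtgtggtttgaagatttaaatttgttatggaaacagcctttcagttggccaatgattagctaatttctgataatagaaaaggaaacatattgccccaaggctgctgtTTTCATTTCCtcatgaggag
Gpnmb: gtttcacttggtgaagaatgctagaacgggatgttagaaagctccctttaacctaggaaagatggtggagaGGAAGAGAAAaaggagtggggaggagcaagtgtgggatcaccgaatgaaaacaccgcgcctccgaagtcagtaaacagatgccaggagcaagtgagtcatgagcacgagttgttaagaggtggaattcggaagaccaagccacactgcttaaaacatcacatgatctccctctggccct

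A mixture of cells was measured, so fewer cells of a type and less RNA per cell cannot be told apart. Values are intensities on a linear scale. Of the 36 members, 33 passed the level filter, a mean above 26.4, and were tested with 10546 genes in all. Ptprc, which encodes the leukocyte antigen CD45, and the scavenger receptors Cd163 and Cd36 lay below it, at means of 24.8, 3.23 and 5.60 after inactivated baculovirus and 24.4, 4.27 and 4.43 after PBS. The tissue had the markers of striatum: 6 of 6 striatal neuron genes passed the filter, and their summed intensity lay between 3566 and 4610 after inactivated baculovirus and between 3671 and 4845 after PBS. PBS replicate 4 stood apart in Ttr, a choroid plexus gene, at 47.7 against 1563 or more on each other array.

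The comparison sets the vector's particles against saline, so the needle wound is common to both groups. Where the PBS tissue came from the side opposite to the virus in the same rat, a change shared by both sides of the brain would not be seen here. Whether there was such a change was not tested. No member passed the threshold in limma (Benjamini-Hochberg adjusted p under 0.05 over 18625 probe sets), and 0% of all genes did, while 6.57% of all genes had an unadjusted p under 0.05. The lowest adjusted p of a member was 0.699, for Olfml3. At an unadjusted p under 0.05 stood 2 members, both higher after inactivated baculovirus, against 2.66% of all genes in that direction, and 0 members lower, against 3.92%. By mean level 26 members were higher and 7 lower, where 55.7% of all genes were higher. The median log2 fold change, on the scale log2(intensity + 16), was -0.06 for the 8 homeostatic genes, 0.13 for the 15 core myeloid genes and 0.10 for the 10 activation or infiltration genes tested, against 0.02 for all genes. By group, 4 of 8 homeostatic, 14 of 15 core myeloid and 8 of 10 activation or infiltration genes had the higher mean after inactivated baculovirus. The counts moved with single arrays. Without baculovirus replicate 1 they were 3, 10 and 6, and without PBS replicate 2 they were 4, 12 and 5.

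**Figure D1:**
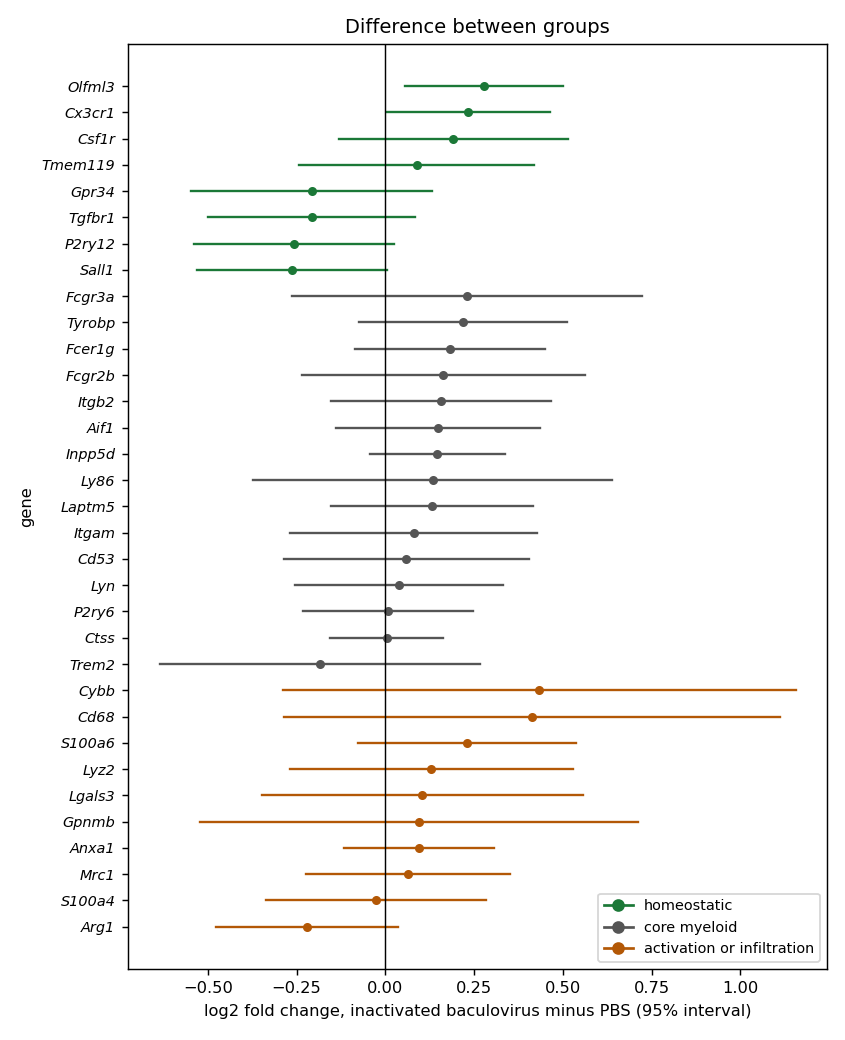
The log2 fold change of each tested member (inactivated baculovirus minus PBS, point) is plotted with its 95% interval from limma (line), by group of genes. Homeostatic genes lie on both sides of 0, from -0.26 for Sall1 to 0.28 for Olfml3, and the intervals of Cybb and Cd68 are the widest.

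Homeostatic genes split into higher and lower means. Cx3cr1, the receptor of the neuronal chemokine fractalkine, had intensities of 58.8, 60.6, 56.0 and 57.2 after inactivated baculovirus, against 37.3, 48.9, 54.7 and 48.7 after PBS. It was the 1 tested member whose groups did not overlap, where 1.87% of all genes had every baculovirus array above every PBS array. No member had every baculovirus array below every PBS array, against 2.30% of all genes. The mean of Cx3cr1 was 58.2 ± 1.99 after inactivated baculovirus, against 47.4 ± 7.28 after PBS (SD, n = 4 each), a log2 fold change of 0.23 with a 95% interval of 0.00335 to 0.463 (limma adjusted p = 0.739). The narrowest gap between the groups was that from 56.0 on baculovirus replicate 3 to 54.7 on PBS replicate 3.

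Olfml3, a secreted glycoprotein of microglia, had 74.5, 66.7, 73.4 and 62.5 after inactivated baculovirus, against 50.0, 56.9, 63.1 and 47.9 after PBS. The groups overlapped only through baculovirus replicate 4 and PBS replicate 3. Its log2 fold change was 0.28 ± 0.10 (SE), and the mean was 69.3 ± 5.66 after inactivated baculovirus, against 54.5 ± 6.94 after PBS (SD, n = 4 each). Csf1r, the receptor for the growth factors Csf1 and Il34, had 373, 298, 413 and 239.99 after inactivated baculovirus, against 239.9, 263, 348 and 289 after PBS. Baculovirus replicates 1 and 3 were its highest arrays, and the groups overlapped almost wholly otherwise. Its log2 fold change of 0.19 ± 0.15 (SE) became 0.0795 without baculovirus replicate 3. Tmem119, a membrane protein that marks microglia, had 141, 106, 116 and 81.5 after inactivated baculovirus, against 113, 108, 117 and 73.4 after PBS. Both groups had a low replicate 4, and the difference of 0.09 turned to -0.0430 without PBS replicate 4 and to -0.0205 without baculovirus replicate 1.

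The remaining homeostatic genes had lower means after inactivated baculovirus, and all of them were highest on PBS replicate 3. Sall1, a transcription factor of microglial identity in mice, had 93.1, 78.2, 97.8 and 83.8 after inactivated baculovirus, against 85.7, 109.9, 140.3 and 105 after PBS. PBS replicate 1 lay within the range of the baculovirus arrays. Its log2 fold change was -0.26 ± 0.12 (SE, limma adjusted p = 0.741) and -0.154 without PBS replicate 3. P2ry12, the ADP receptor that steers microglial processes towards damage, had 163, 135, 140.4 and 154 on its brighter probe set after inactivated baculovirus, against 184, 159.6, 244 and 145 after PBS. Its log2 fold change of -0.26 ± 0.13 was not shared by its other probe set, which had 0.03 ± 0.15 (SE). Without PBS replicate 3 the value of the brighter probe set was -0.123. Gpr34, a receptor for lysophosphatidylserine, had 73.0, 61.3, 76.6 and 75.4 after inactivated baculovirus, against 84.1, 68.1, 130.5 and 67.9 after PBS. Apart from PBS replicate 3 the groups covered much the same range, and the log2 fold change of -0.21 was -0.0280 without that array. Tgfbr1, a receptor for transforming growth factor beta that many cell types carry, had 339.6, 249, 290.4 and 229 after inactivated baculovirus, against 272, 294, 415 and 312 after PBS. Its groups overlapped, and the log2 fold change of -0.21 ± 0.13 (SE) was -0.0863 without PBS replicate 3. Its dimmer probe set lay below the filter and had the opposite sign, 0.08 ± 0.15 (SE), when all probe sets were tested.

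**Figure D2:**
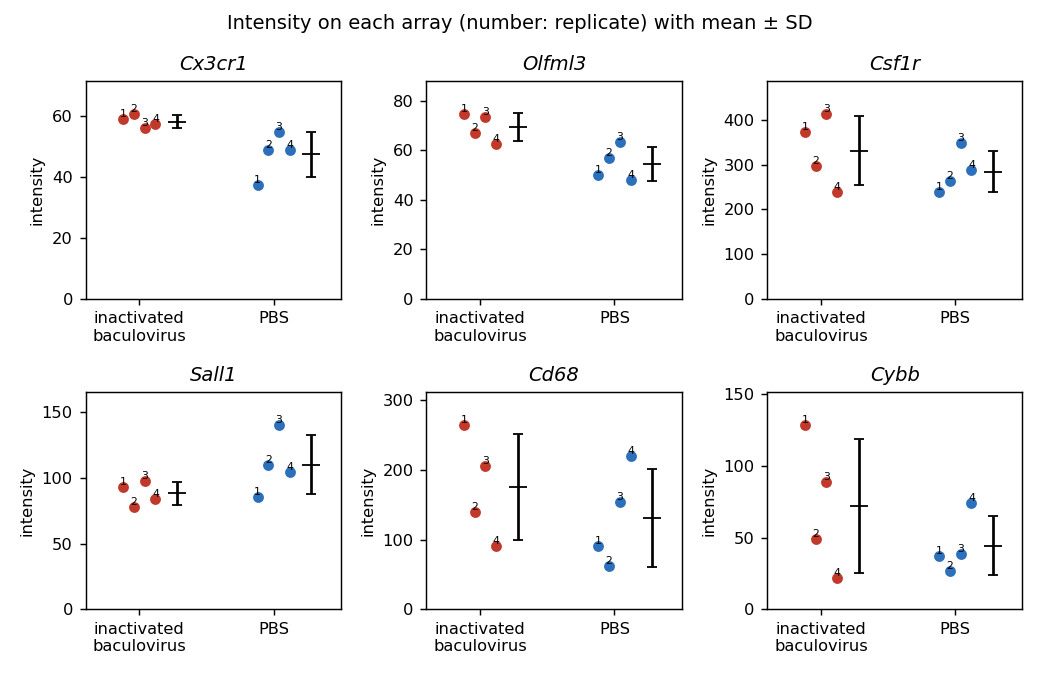
Intensities (vertical axis, linear, from 0) of 6 members are shown for each array (points, numbered by replicate) in both groups, with mean ± SD (bar, n = 4). The groups do not overlap for Cx3cr1, while Cd68 and Cybb have the widest spread of the 6 genes relative to their means in both groups.

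Core myeloid genes had small differences, and 0 passed (0% of all genes). The mean was higher after inactivated baculovirus for 14 of 15 members, where 55.7% of all genes were higher. The fold changes ran from -0.18 to 0.23 on the log2 scale. The integrin chains Itgam (CD11b) and Itgb2 (CD18), which pair as the complement receptor CR3, stood at 0.08 ± 0.16 and 0.16 ± 0.14 (log2 fold change ± SE). Itgam had 69.1, 51.8, 62.8 and 34.1 after inactivated baculovirus, against 37.4, 48.1, 56.5 and 57.6 after PBS, with the lowest and the highest array both in the baculovirus group. Aif1, which encodes Iba1, the usual stain for microglia, had 279, 242, 277 and 198 after inactivated baculovirus, against 212, 173, 276 and 235 after PBS. The groups overlapped over nearly their whole range, and both of its probe sets had positive differences, 0.15 and 0.16. The brighter one carries the suffix that marks probes shared with other transcripts.

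Fc receptors and their signalling chains showed the same array pattern. Fcer1g, the chain that signals for activating Fc receptors, had 814, 670.0, 770.4 and 587 after inactivated baculovirus, against 596, 494, 658 and 757 after PBS. Tyrobp, the adaptor known as DAP12 that signals for Trem2, had 257, 201, 227 and 179 after inactivated baculovirus, against 184, 135, 214 and 204 after PBS. Both were highest on baculovirus replicate 1 and lowest on PBS replicate 2, with log2 fold changes of 0.18 ± 0.12 and 0.22 ± 0.14 (SE). Fcgr3a, an activating Fc receptor, had 248, 157, 201 and 108 after inactivated baculovirus, against 121, 95.9, 186 and 193 after PBS. Its log2 fold change of 0.23 ± 0.23 was 0.0667 without baculovirus replicate 1 and 0.0605 without PBS replicate 2. The inhibitory receptor Fcgr2b stood at 0.16 ± 0.18 (SE). Fc receptor genes are similar in sequence, and the files do not show how far their probes are shared. Trem2, a lipid receptor of phagocytic microglia, had opposite signs on its 2 probe sets, -0.18 ± 0.21 and 0.19 ± 0.16 (SE). The brighter one had 38.6, 25.2, 49.6 and 55.0 after inactivated baculovirus, against 41.9, 37.4, 85.3 and 39.6 after PBS, so that PBS replicate 3 lay above all other arrays.

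Among the intracellular and lysosomal members, Inpp5d, the lipid phosphatase SHIP1 that damps these receptors, had 188, 175, 202 and 159 after inactivated baculovirus, against 149.7, 164, 164 and 168 after PBS. Its 3 highest arrays were baculovirus arrays, and its log2 fold change of 0.15 ± 0.09 had the lowest p among the probe sets that stood for a core gene (limma adjusted p = 0.776). The kinase Lyn stood at 0.04 and 0.26 on its 2 probe sets, Laptm5, a lysosomal membrane protein, at 0.13 and 0.00202, the tetraspanin Cd53 at 0.06 and Ly86, a partner of a Toll-like receptor relative, at 0.13. Of the probe sets that stood for a core gene, that of the protease gene Ctss differed least, with 912 ± 40.2 after inactivated baculovirus, against 912 ± 82.8 after PBS (SD, n = 4 each), a log2 fold change of 0.00340 with a 95% interval of -0.156 to 0.163. P2ry6, a receptor for UDP linked to phagocytosis, stood at 0.00798 with an interval of -0.232 to 0.248.

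Activation or infiltration genes included the widest spreads between arrays of the same group, with 0 passing. The mean was higher after inactivated baculovirus for 8 of 10, where 55.7% of all genes were higher. Cd68, a lysosomal glycoprotein of phagocytes, had 264, 139, 206 and 90.9 after inactivated baculovirus, against 90.1, 61.8, 153 and 219 after PBS. The highest array was 4.28-fold above the lowest, and each group held high and low arrays. The mean was 175 ± 75.8 after inactivated baculovirus, against 131 ± 70.0 after PBS (SD, n = 4 each), with a log2 fold change of 0.41 and a 95% interval of -0.29 to 1.11 (limma adjusted p = 0.814). It was 0.148 without PBS replicate 2 and 0.680 without PBS replicate 4.

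Cybb, the catalytic subunit of the phagocyte oxidase, had 129, 49.1, 89.1 and 22.0 on its brighter probe set after inactivated baculovirus, against 37.1, 27.1, 38.7 and 74.0 after PBS. Baculovirus replicate 4 was the lowest of all 8 arrays and replicate 1 the highest. The log2 fold change was 0.43 ± 0.33 (SE), 0.139 without baculovirus replicate 1 and 0.782 without baculovirus replicate 4. Its dimmer probe set lay below the filter for all tests, at 36.3, 29.5, 32.2 and 25.8 after inactivated baculovirus, against 16.9, 20.3, 20.9 and 25.6 after PBS. There the groups did not overlap, by a gap from 25.8 to 25.6, and it did not pass when all probe sets were tested (limma adjusted p = 0.768).

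The other activation or infiltration genes had smaller differences. Lyz2, which encodes a lysozyme of macrophages, had 1199, 955, 1185 and 738 after inactivated baculovirus, against 919, 619.9, 977 and 1245 after PBS. Gpnmb, a glycoprotein of lipid-laden phagocytes, had 363, 223, 272 and 147 after inactivated baculovirus, against 136, 159, 324 and 345 after PBS. The files do not show whether the Lyz2 probes also read the related lysozyme gene. The groups of both genes overlapped wholly or nearly so, with log2 fold changes of 0.13 ± 0.18 and 0.10 ± 0.29 (SE). Galectin-3, encoded by Lgals3, had 349.6, 239.7, 244 and 176 after inactivated baculovirus, against 159, 183, 302 and 300.2 after PBS, a log2 fold change of 0.10 ± 0.21 (SE). The mannose receptor Mrc1, a marker of perivascular macrophages, stood at 0.06 and Anxa1, an anti-inflammatory annexin, at 0.09. The calcium-binding proteins S100a6 and S100a4, which other cell types also make, stood at 0.23 and -0.03. Arg1, which encodes arginase and marks alternatively activated macrophages in rodents, had 37.2, 36.6, 36.6 and 49.5 after inactivated baculovirus, against 59.4, 47.1, 48.9 and 41.6 after PBS. The 3 lowest arrays were baculovirus arrays, and baculovirus replicate 4 lay within the range of the PBS arrays. Its log2 fold change was -0.22 ± 0.12 (SE, limma adjusted p = 0.757).

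The members varied between arrays of the same group more than most genes. The residual SD of the log2 level, the spread left within groups, had a median of 0.251 over the 33 members and of 0.138 over all genes. It lay above the 75th percentile of all probe sets tested for 25 of the 33 members and above the 90th for 15. Cybb and Cd68 lay at the 99.7th and 99.6th percentile, while Ctss, Inpp5d, Anxa1, Olfml3 and Cx3cr1 lay at or below the 35.8th. Baculovirus replicate 1 was the highest of the 8 arrays for 19 of the 33 members, against 12.02% of all genes. PBS replicate 2 was the lowest array for 13 members, against 15.1% of all genes. By group, baculovirus replicate 1 was highest for 11 of 15 core myeloid and 6 of 10 activation or infiltration genes but for 2 of 8 homeostatic genes, where PBS replicate 3 was highest for 4. Over all genes PBS replicate 3 was the highest array for 17.08% and the lowest for 18.8%, in both the largest share of any array.

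**Figure D3:**
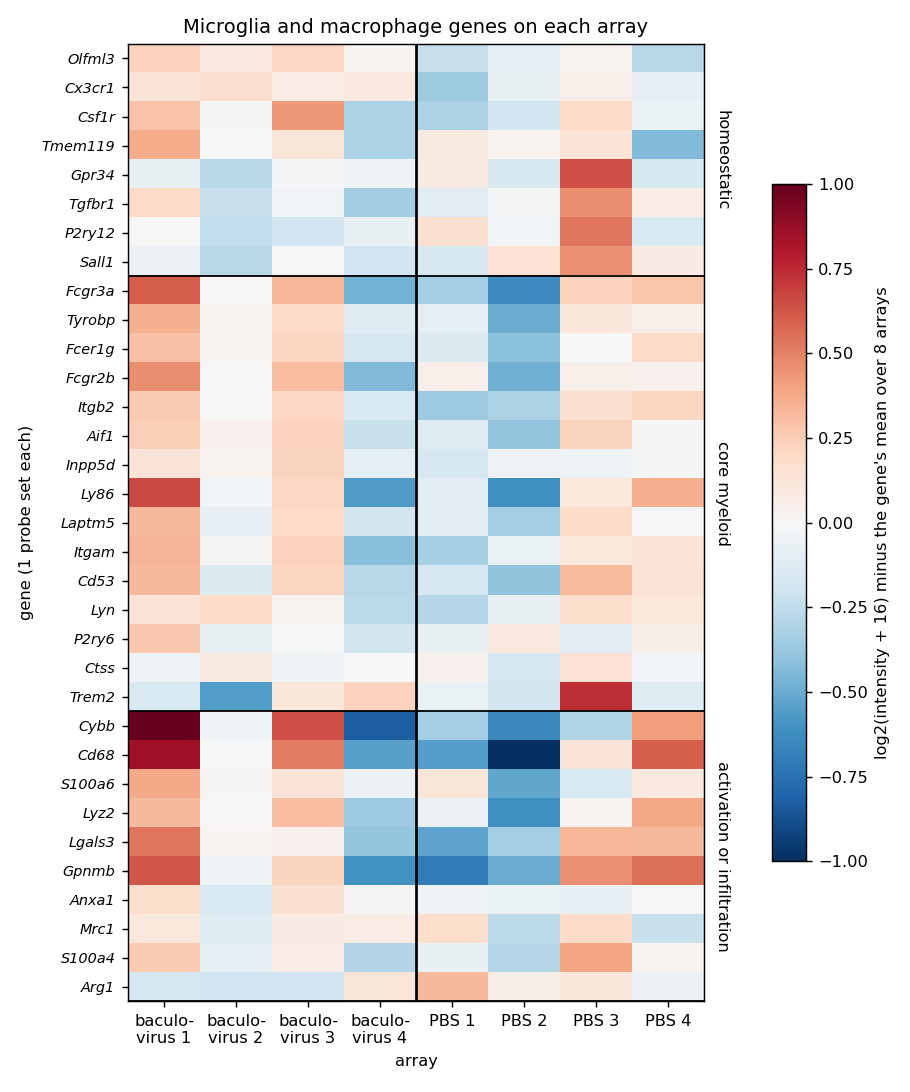
Each row is a tested member and each column an array, with baculovirus arrays left of the line and PBS arrays right of it. Colour gives log2(intensity + 16) minus the gene's mean over 8 arrays. Baculovirus replicates 1 and 3 are mostly red and PBS replicate 2 mostly blue in the core myeloid and activation blocks, and the lower 4 homeostatic genes are reddest on PBS replicate 3.

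A level was made for each group of genes and array, the mean over its tested members of log2(intensity + 16) minus the gene's mean. The activation or infiltration level was 0.42, -0.06, 0.20 and -0.29 on baculovirus replicates 1 to 4, against -0.17, -0.42, 0.11 and 0.21 on PBS replicates 1 to 4. The homeostatic level was 0.13, -0.10, 0.07 and -0.15 after inactivated baculovirus, against -0.10, -0.05, 0.31 and -0.13 after PBS. The homeostatic level minus the activation level was thus -0.28, -0.04, -0.12 and 0.14 after inactivated baculovirus, against 0.06, 0.37, 0.20 and -0.34 after PBS. It averaged -0.07 ± 0.18 after inactivated baculovirus, against 0.07 ± 0.30 after PBS (SD, n = 4 each). The difference between the groups, -0.15, was smaller than the SD within either group. PBS replicate 4 had the lowest value of all and baculovirus replicate 4 a positive one, so the groups overlapped.

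The levels were set beside 3 measures of RNA integrity and labelling. Each is the log2 level of a control gene's 3′ probe set minus that of its 5′ one. For beta-actin it was 0.368, 0.512, 0.405 and 0.729 on baculovirus replicates 1 to 4, against 0.573, 0.631, 0.464 and 0.412 on PBS replicates 1 to 4. The array with the smallest actin difference, baculovirus replicate 1, had the highest activation level, and the arrays with the largest, baculovirus replicate 4 and PBS replicate 2, had the lowest. The homeostatic level did not keep this order on PBS replicate 3, which had the highest level, or on PBS replicate 4, which had the 3rd smallest actin difference and the 2nd lowest level. For GAPDH the measure was -0.107, -0.0387, -0.105 and -0.0502 on baculovirus replicates 1 to 4, against -0.0363, -0.0481, -0.0823 and -0.0831 on PBS replicates 1 to 4. Baculovirus replicate 1 had the smallest value here too. The largest GAPDH values were on PBS replicate 1 and baculovirus replicate 2, not on the 2 arrays with the largest actin difference. The hexokinase measure had another order, with 2.465, 1.77, 2.43 and 1.98 on baculovirus replicates 1 to 4, against 2.35, 2.37, 2.07 and 1.78 on PBS replicates 1 to 4. It was largest on baculovirus replicate 1, the array with the highest activation level. The actin difference was also fitted as a covariate, a choice made with earlier results of these data known. No fit used the GAPDH or hexokinase measure. Whether RNA integrity or labelling has a part in the array pattern was not tested. With the actin covariate, the median residual SD of the members was 0.158, against 0.134 for all genes. For Cd68 it was 0.255, against 0.660 without the covariate, and for Cybb 0.233, against 0.675. The log2 fold changes with the covariate were 0.34 ± 0.14 for Cd68 and 0.36 ± 0.14 for Cybb (SE). Their 95% intervals were then 0.0406 to 0.634 and 0.0544 to 0.658, and 0 probe sets passed in that fit (limma adjusted p = 0.646 and 0.644). Among the members, the interval of Sall1 also came to exclude 0 with the covariate, while that of Cx3cr1 came to include it. The median fold changes were then -0.07 for homeostatic, 0.11 for core myeloid and 0.08 for activation or infiltration genes.

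**Figure D4:**
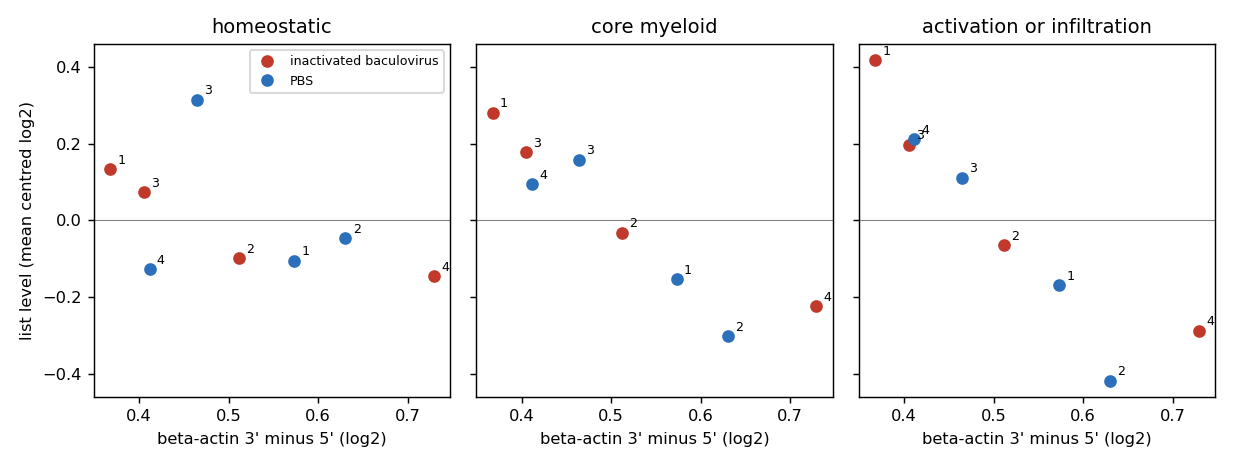
The level of each group of genes (vertical axis, mean centred log2) is plotted against the beta-actin 3′ minus 5′ difference (horizontal axis, log2) for the 8 arrays, numbered by replicate. Core myeloid and activation levels run from upper left to lower right in both groups of arrays, and PBS replicates 3 and 4 depart from it in the homeostatic panel.

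The other genes of the microglial programme were read from 6 lists, and none of them passed in limma (0% of all genes). Beside the counts of higher and lower genes in these lists, 55.7% of all genes were higher. How these counts move with single arrays was not examined. Of the niche signals, the growth factors Csf1 and Il34, the neuronal ligand Cx3cl1, Tgfb1 and 5 more, 9 were tested, 4 were higher and 5 lower, and 0 passed in either direction. Tgfb1 stood at 0.32 ± 0.21, Cd200, a neuronal surface signal that restrains microglia, at -0.10 ± 0.08, and Csf1 at 0.14 ± 0.12 (log2 fold change ± SE). Of 16 genes of the signalling chain behind Tyrobp and Fcer1g, 9 were tested, 7 higher and 2 lower with 0 passing, among them the kinase Btk at 0.26 ± 0.18, the adaptor Lcp2 at -0.12 ± 0.11 and the phosphatase Ptpn6 at 0.16 ± 0.16.

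Of myeloid transcription factors 8 were tested, 4 higher and 4 lower with 0 passing. The lowest p belonged to Bhlhe41, also expressed outside microglia, which had 361 ± 13.1 after inactivated baculovirus, against 451 ± 74.8 after PBS (SD, n = 4 each), a log2 fold change of -0.30 ± 0.10 (SE, limma adjusted p = 0.690). It too was highest on PBS replicate 3, at 556. Maf stood at -0.21 ± 0.12 and Cebpb at 0.21 ± 0.14. Further homeostatic genes had 9 of 11 higher and 2 lower with 0 passing, and the smallest p-values belonged to Rnase4 at -0.11 ± 0.08, the complement chain C1qc at 0.20 ± 0.15 and Abi3 at 0.15 ± 0.13.

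Of 16 tested genes associated with phagocytic microglia in disease, 10 were higher and 6 lower with 0 passing, among them the lipase Lpl at -0.15 ± 0.11, Cst7 at 0.22 ± 0.22 and the protease Ctsz at 0.21 ± 0.21 (log2 fold change ± SE). Of 9 tested genes of the phagocyte oxidase and lysosome, 7 were higher and 2 lower with 0 passing. The lysosomal enzyme Hexa had 323, 335, 333 and 348 after inactivated baculovirus, against 296, 269, 317 and 289.5 after PBS, and the lipase Lipa 182, 162, 172 and 164, against 154, 161, 138 and 142. The groups did not overlap for either, where 1.87% of all genes had every baculovirus array above every PBS array. The log2 fold changes were 0.19 ± 0.07 and 0.18 ± 0.08 (SE, limma adjusted p = 0.719 and 0.740). Ncf4, a further oxidase subunit, stood at 0.22 ± 0.14.

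Most markers of blood cells lay below the level filter. Of neutrophil markers 0 of the 5 on the array passed the level filter. Their summed intensity lay between 27.0 and 45.9 after inactivated baculovirus and between 26.3 and 56.9 after PBS. Of monocyte markers 4 of 6 passed, and the sum lay between 901 and 1371 after inactivated baculovirus and between 867 and 1129 after PBS. All 4 had the higher mean level after inactivated baculovirus, where 55.7% of all genes did, and 0 passed the threshold in limma. The log2 fold changes were 0.17 ± 0.11 for Fn1, 0.21 ± 0.18 for Cd14, 0.29 ± 0.33 for Plac8 and 0.06 ± 0.08 for Chi3l1 (SE). The defining receptor Ccr2 was near 0 throughout, between 3.89 and 11.9 after inactivated baculovirus and between 3.54 and 9.67 after PBS. Plac8 had its highest and its lowest array in the baculovirus group, with 394, 219, 321 and 92.2 after inactivated baculovirus, against 183, 122, 190.5 and 260.3 after PBS. T and NK cell markers had 1 of 8 above the filter, and their sum lay between 163 and 199 after inactivated baculovirus and between 109.8 and 179 after PBS. The 1 above it, Lck, had means of 65.0 after inactivated baculovirus and 65.3 after PBS. Each of the others, with means below the filter, had the higher mean after inactivated baculovirus, where 55.7% of tested genes did. Their groups overlapped in each case. B cell markers had 0 of 2 above it, with sums between 15.8 and 21.6 after inactivated baculovirus and between 16.4 and 32.0 after PBS. Of the fibroblast and meningeal genes 6 of 6 passed the filter, with sums between 626 and 816 after inactivated baculovirus and between 489 and 743 after PBS, and 5 of the 6 had the higher mean after inactivated baculovirus. In 2 of these genes the groups did not overlap, against 1.87% of all genes. Bgn, a proteoglycan of the extracellular matrix, had 121, 153, 153 and 117 after inactivated baculovirus, against 87.8, 104, 78.3 and 104 after PBS, and a log2 fold change of 0.47 ± 0.12 (SE, limma adjusted p = 0.690). The collagen chain gene Col1a1 had 85.1, 74.6, 85.7 and 75.5 after inactivated baculovirus, against 70.8, 65.3, 58.1 and 71.5 after PBS, and a log2 fold change of 0.22 ± 0.10 (SE, limma adjusted p = 0.726). Bgn thus had a larger fold change than any tested member, and it did not pass. Endothelial genes summed to between 844 and 909 after inactivated baculovirus and between 794 and 885 after PBS, with 6 of 6 above the filter. Red cell genes, 1 of 2 above it, summed to between 83.1 and 752 after inactivated baculovirus and between 50.2 and 507 after PBS, with the highest sums on replicate 4 of either group. The part of these cells in the values of the macrophage genes was not tested.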

How the data were processed

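The 8 brain RNA samples were measured on Affymetrix Rat Genome 230 2.0 arrays, which read 3′ ends. The submitters' processing notes name GCOS and GCRMA, without their roles. The deposited values are linear intensities, scaled by the authors: without 2% at each end, array means lay between 100.021 and 100.023. The algorithm, and which of the 2 labelling kits served an array, are not given in the sources used here.

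Control probe sets (57) were left out. Symbols came from the platform annotation and were checked by gene number in RefSeq, which changed 0. A gene was read from its brightest single-symbol probe set. Intensities became log2(intensity + 16) without further normalization, since array medians spanned 0.111. Those whose mean exceeded the 40th percentile were tested with limma 3.58.1 in R 4.3.3 (variance trend, no block), with Benjamini-Hochberg adjustment. The half-width of the 95% interval was 0.231 for the median probe set, limited by the number of arrays.

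Members, lists and the actin covariate were chosen with earlier results of these data known. Text names every member, and of the other microglial lists gives fold changes for the 3 genes with the smallest p. Lists of other cell types are given mainly as sums. Only some of their genes are named, not always those with the smallest p, and Ccr2 is named as the defining monocyte receptor. Alternatives covered pseudocount, normalization, filter, variance model, array weights, block, actin covariate, probe set averaging, the methods' t-test and each array left out.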

Additional observations from a re-analysis of the deposited data

Results flagged for a closer look

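Within each group of 4 arrays, each tested member and each level of the 3 groups of genes was examined for an array far from the others, 72 sets of values in all. Chance flags about 1 in 20 such sets, and 4 were found here. Trem2 had 85.3 on PBS replicate 3, above the 37.4 to 41.9 of the remaining PBS arrays. Fcgr2b had 31.2 on PBS replicate 2, below the 51.9 to 52.4 of the remaining PBS arrays. Mrc1 had 26.5 on baculovirus replicate 2 and between 32.9 and 34.0 on the others of that group. Arg1 had 49.5 on baculovirus replicate 4 and between 36.6 and 37.2 on the others of that group.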

How the results depend on the processing

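With 1 array left out, 0 probe sets passed in any of 8 fits. The median log2 fold change ran from -0.131 to 0.0605 for homeostatic, from 0.0358 to 0.235 for core myeloid and from -0.00327 to 0.263 for activation or infiltration genes, and their homeostatic minus activation difference from -0.385 to -0.0619. Without replicate 3 or 4 of the PBS group these extremes were reached for homeostatic genes, and without PBS replicate 2 the activation median turned below 0. Direction changed for 13 members, with log2 fold changes from -0.043 to 0.208 for Tmem119, -0.0199 to 0.235 for Itgam, -0.0806 to 0.0702 for P2ry6, -0.29 to 0.237 for Trem2, -0.0656 to 0.174 for Cd53, -0.0645 to 0.346 for Ly86, -0.0502 to 0.134 for Lyn, -0.0518 to 0.0516 for Ctss, -0.0155 to 0.14 for Mrc1, -0.0567 to 0.252 for Lgals3, -0.123 to 0.312 for Gpnmb, -0.0521 to 0.277 for Lyz2 and -0.127 to 0.0998 for S100a4. Of the 12 other settings, 5 cannot move a member's fold change by construction (no level filter, a filter at the 60th percentile, no or a robust variance trend, and the replicate block). Under the 7 that can, 224 of 231 member results had the same direction and 0 passed, and 20 members kept their direction under these and with each array left out. The reversals were P2ry6 at -0.00886 with quantile normalization, -0.0207 with median centring, -0.0270 with array weights and -0.00291 with the actin covariate, Trem2 at 0.00550 for the mean of its probe sets, Ctss at -0.0253 with median centring and S100a4 at 0.00111 with array weights. Their cause was not tested. Titles share replicate numbers. Deviations of same-numbered arrays from their group means correlated at -0.00314 to 0.0203 across probe sets, against -0.107 to 0.072 for arrays with different numbers. The numbers were not read as pairs, and whether arrays share a rat in another order was not tested. With the replicate number as a block, which in this balanced design leaves each fold change and so the homeostatic median of -0.0593 as it is, 0 probe sets passed. The level filter at the 60th percentile left fewer genes and gave -0.207 for homeostatic genes. The methods' t-test was run on the log2 scale of the main fit, with its added constant, and after its level filter. It gave 0 probe sets after adjustment and 0 at its own threshold with a 2-fold change on that scale. The added constant makes fold changes smaller, most at low intensities, so the submitters' threshold on the deposited intensities was not tested. The intervals of Cd68 and Cybb include 0 without the actin covariate and exclude it with the covariate, where the adjusted p was 0.646 and 0.644. That of Sall1 did the same, from -0.531 to 0.00578 without it and from -0.536 to -0.00786 with it. Cx3cr1 went the other way, from 0.00335 to 0.463 without the covariate and from -0.00905 to 0.469 with it. How many of all genes had an interval that excluded 0 in that fit was not counted.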
